A study of Mus musculus with 9 samples.

Results

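The genes described here are 10 that carry iron into cells, store it, send it out or sense it: Tfrc, Tfr2, Slc11a2, Steap3, Slc25a37, Slc40a1, Fth1, Ftl1, Aco1 and Ireb2. They were chosen by symbol from the 35275 gene identifiers of the count table, and all 10 had counts in every library. Bulk RNA-seq was performed on megakaryocyte-erythrocyte progenitors (MEPs), bone marrow cells sorted from mice as Lin-ckit+CD34-FcγRII/IIIlo, with 25000 cells per library. MEPs that bound HS3A8, a single-chain variable fragment antibody (scFv) against heparan sulfate (HS), strongly (HS3A8-high) or weakly (HS3A8-low) were compared with each other and with MEPs mock-sorted with MPB49, an scFv without known HS binding (MPB49 control). The HS3A8 gates described by the study together cover the whole range of binding by MEPs, so high and low are relative terms. Each of the 3 groups had 3 libraries, replicates 1 to 3, and the labels name no treatment. The methods list wild-type, age- and sex-matched C57Bl/6 mice among the strains used without assigning a strain to these libraries, and both HS3A8 fractions are mixtures of cells gated on surface binding rather than clonal populations.

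Total counts per library ranged from 11781637 to 15850037. Levels are given as CPM, read counts corrected for library size and scaled over all 9 libraries by the trimmed mean of M values (TMM), and a count of 0 would allow up to 3 counts, or 0.176 to 0.282 CPM, for counting error only. The smallest count of any of the 10 genes in any library was 304, so depth did not limit their detection. The progenitor genes Kit (383 to 797 CPM) and Gata1 (369 to 516 CPM) were present in all 9 libraries, as were the other 5 of 7 genes of the MEP list, whose levels by fraction are given with the other markers. Replicate 3 of both HS3A8 fractions held granulocyte-monocyte transcripts, with 15 of 15 markers summing to 1951 CPM in HS3A8-high and 5014 CPM in HS3A8-low replicate 3 against 10.2 to 264 CPM in the other 7 libraries. MPB49 control replicate 1 stood apart from the other control libraries, since the chi-square of its counts, divided by the degrees of freedom, was 196 and 150 against them and 9.61 between replicates 2 and 3.

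Erythroid cells need more iron than other cells, because heme is made from it. Iron-loaded transferrin is bound at the surface by transferrin receptor 1 (Tfrc) and taken up into endosomes, where the reductase Steap3 converts ferric to ferrous iron and the transporter Slc11a2 (DMT1) moves it into the cytosol. Slc25a37 (mitoferrin 1) brings iron into mitochondria, the ferritin subunits Fth1 and Ftl1 store it, and Slc40a1 (ferroportin) exports it. When iron is scarce, the iron regulatory proteins encoded by Aco1 (IRP1) and Ireb2 (IRP2) bind a hairpin in target mRNAs, the iron-responsive element (IRE). Bound to a 3′ untranslated region (UTR) they protect the mRNA, and bound to a 5′ UTR they block translation, so that the 5′ kind of control does not need a change in mRNA.

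IRE cores found in these genes are shown because one in the 3′ UTR allows control of the mRNA level and one in the 5′ UTR control of translation. A core of 17 bases was searched in the UTRs of coding transcripts of GENCODE M21 (build GRCm38) on the sense strand: an unpaired C, 5 stem bases, the loop CAGTGN and 5 bases that pair with the stem, with G-T pairs allowed. Of the 20979 genes with an annotated 3′ UTR 0.615% held such a core, as did 0.151% of the 20597 genes with a 5′ UTR. Tfrc held 4 cores in its 3′ UTR on chromosome 16, plus strand, at chr16:32631225-32631241, chr16:32631604-32631620, chr16:32631669-32631685 and chr16:32631716-32631732, listed in that order as cores 1 to 4. Slc40a1 (chr1:45925471-45925487, minus strand), Fth1 (chr19:9982738-9982754, plus strand) and Ftl1 (chr7:45459785-45459801, minus strand) held 1 each in the 5′ UTR. The sequences are given 5′ to 3′ with the loop in capitals.
Tfrc core 1: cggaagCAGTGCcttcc
Tfrc core 2: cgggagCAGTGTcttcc
Tfrc core 3: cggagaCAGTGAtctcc
Tfrc core 4: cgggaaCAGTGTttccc
Slc40a1: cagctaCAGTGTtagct
Fth1: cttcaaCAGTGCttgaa
Ftl1: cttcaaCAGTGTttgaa
All 5 stem pairs were Watson-Crick pairs in 6 of these 7 cores, and core 2 of Tfrc had 1 G-T pair. No match was found in the UTRs of Tfr2, Slc11a2, Steap3, Slc25a37, Aco1 and Ireb2, which says only that these letters are not in the annotated windows. The search allowed no mismatch or bulge in the stem, so an IRE of that kind, in Slc11a2 or another member, would be missed.

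The quasi-likelihood test of edgeR was run for each pair of groups over all genes that passed its count filter, with Benjamini-Hochberg adjustment and a threshold of 0.05, and log2 fold changes are given with their standard error (SE) or 95% interval. In HS3A8-high relative to HS3A8-low MEPs, the endosomal ferrireductase gene Steap3 was higher by 1.33-fold and was the only member to pass the threshold. Levels of Tfrc, Slc11a2 and Slc40a1 were also higher in every HS3A8-high than in every HS3A8-low library, but none of these 3 passed. The ferritin genes, which took most of the counts of these 10 genes, lay at overlapping levels in both fractions. Passing the threshold was 1 of 10 members, higher in HS3A8-high, against 3.82% of the 11791 genes tested in either direction and 0.611% in that direction. Without overlap of the groups were 4 of 10 members, all 4 higher in HS3A8-high, against 28.6% of all genes in either direction and 14.1% in that direction. The median log2 fold change of the 10 members was 0.14, with 8 above 0, beside a median of -0.03 over all genes tested, and it describes a list chosen with earlier results known.

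**Figure D1:**
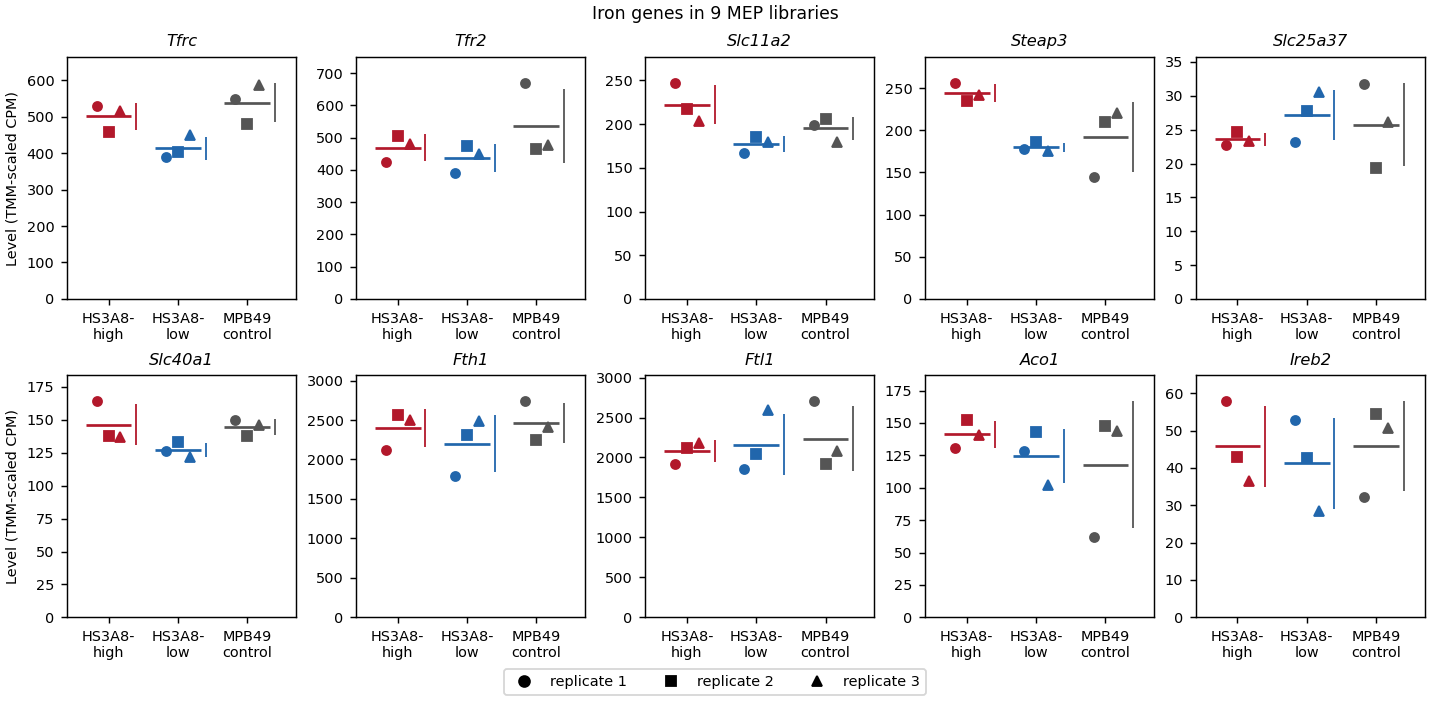
TMM-scaled CPM (vertical axis, from 0) of the 10 iron genes in the 3 groups. Each point is a library, its shape gives the replicate number, the horizontal line is the group mean and the vertical line beside it spans 1 SD on either side of the mean. Steap3 lies between 235 and 256 CPM in HS3A8-high and between 175 and 186 CPM in HS3A8-low, while the ferritin genes overlap in all groups.

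Among the uptake genes, Steap3 (ENSMUSG00000026389, chromosome 1 of GRCm38 from 120190757 to 120272705, minus strand) encodes the main ferrireductase of erythroid endosomes. Its levels were 256, 235 and 242 CPM in HS3A8-high replicates 1 to 3 and 178, 186 and 175 CPM in HS3A8-low. All 3 HS3A8-high libraries lay above all 3 HS3A8-low libraries, and the gap between the groups, from 186 to 235 CPM, was wider than the spread within either. The log2 fold change was 0.42 (SE 0.0759, 95% interval 0.24 to 0.59, adjusted p = 0.0363 by edgeR). Within pairs of the same replicate number HS3A8-high exceeded HS3A8-low by 0.52, 0.34 and 0.46 on the log2 scale. The call was held by 4 of 12 alternatives, whose adjusted p ran from 0.000273 to 0.239. When 1 of the 6 libraries was left out the call was lost in every case, with an adjusted p of 0.0608 to 0.141 and a log2 fold change of 0.38 to 0.46.

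Tfrc (ENSMUSG00000022797, chromosome 16 from 32608920 to 32632794) encodes the receptor for transferrin-bound iron, known as CD71, a surface marker of maturing erythroid cells. It had 529, 458 and 515 CPM in HS3A8-high and 389, 402 and 449 CPM in HS3A8-low replicates 1 to 3. The groups did not overlap, but HS3A8-high replicate 2 (458 CPM) and HS3A8-low replicate 3 (449 CPM) lay close together. The log2 fold change was 0.25 (95% interval 0.04 to 0.47), with an unadjusted p of 0.0275 and an adjusted p of 0.184 by edgeR. The pairs differed by 0.44, 0.19 and 0.20 on the log2 scale, each higher in HS3A8-high. None of the 12 alternatives called Tfrc, the smallest adjusted p being 0.0809 when replicate number entered as a block.

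Slc11a2 (ENSMUSG00000023030, chromosome 15 from 100387898 to 100425072, minus strand) had 247, 217 and 203 CPM in HS3A8-high and 167, 185 and 180.0 CPM in HS3A8-low. The groups did not overlap, and replicate 1 held both the highest HS3A8-high and the lowest HS3A8-low value. This gave a log2 fold change of 0.30 (95% interval 0.06 to 0.54, adjusted p = 0.156 by edgeR), and within pairs 0.56, 0.23 and 0.17. Exons of another gene on the opposite strand cover 6.33% of those of Slc11a2, and whether the counting used the strand is not given in the sources used here.

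Tfr2 (ENSMUSG00000029716, chromosome 5 from 137569840 to 137587481) encodes the second transferrin receptor, which in erythroid cells associates with the erythropoietin receptor. It had 425, 505 and 479 CPM in HS3A8-high and 389.8, 473 and 448 CPM in HS3A8-low, so the ranges overlapped. Each pair was nonetheless slightly higher in HS3A8-high, by 0.09 to 0.12 on the log2 scale, and the test gave a log2 fold change of 0.08 (95% interval -0.16 to 0.31, adjusted p = 0.724 by edgeR).

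Slc25a37 (ENSMUSG00000034248, chromosome 14 from 69241848 to 69285112, minus strand) was the member with the lowest CPM. Its levels were 22.8, 24.6 and 23.3 CPM in HS3A8-high and 23.2, 27.7 and 30.5 CPM in HS3A8-low. The ranges overlapped through HS3A8-low replicate 1. Slc25a37 and Ftl1 were the 2 members with a log2 fold change below 0, for Slc25a37 one of -0.23 (95% interval -0.58 to 0.12, adjusted p = 0.454 by edgeR). Exons of other genes on the opposite strand cover 6.33% of its exons.

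The storage genes were the most abundant. Fth1 (ENSMUSG00000024661, chromosome 19 from 9980598 to 9985098), the ferritin heavy subunit with ferroxidase activity, had 2119, 2559 and 2504 CPM in HS3A8-high and 1797, 2304 and 2493 CPM in HS3A8-low. Replicate 1 was the lowest library of both fractions, and the difference within pairs shrank from 0.24 and 0.15 to 0.01 in replicate 3. Its log2 fold change was 0.10 (95% interval -0.20 to 0.40, adjusted p = 0.727 by edgeR).

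Ftl1 (ENSMUSG00000050708, chromosome 7 from 45457944 to 45459884, minus strand), the light subunit that aids mineral formation inside ferritin, had 1921, 2123 and 2187 CPM in HS3A8-high and 1850.5, 2039 and 2593 CPM in HS3A8-low. The highest of these 6 libraries was HS3A8-low replicate 3, the one with 5014 CPM of granulocyte-monocyte transcripts, whose part in this value was not tested. The log2 fold change was -0.08 (95% interval -0.37 to 0.21, adjusted p = 0.76 by edgeR), and 0.05 with replicate 3 of both fractions left out. The intervals of the ferritin genes thus leave room for differences of up to 0.40 on the log2 scale.

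Ferritin genes have near-identical processed copies in the mouse genome, and reads shared with them can be lost or split by counting. In the Ftl family 4 rows had counts, of which the copies took 0.661% to 0.858% of the family total per library, led by Ftl1-ps1 with 13.1 to 17.3 CPM. In the Fth family the copies took at most 0.00593%. Summing each family into 1 row changed neither the direction nor the call of Fth1 or Ftl1 in any comparison. Exons of other genes cover 34.6% of the Ftl1 exons, so its level is uncertain.

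The export gene Slc40a1 (ENSMUSG00000025993, chromosome 1 from 45908068 to 45926523, minus strand) encodes the only known iron exporter of mammalian cells. It had 164, 138 and 137 CPM in HS3A8-high and 126, 133 and 122 CPM in HS3A8-low. The groups were adjacent without overlapping, with a gap from 133 to 137 CPM, and HS3A8-high replicate 1 lay apart from the other libraries. The test gave a log2 fold change of 0.18 (95% interval -0.07 to 0.43, adjusted p = 0.396 by edgeR), and within pairs it was 0.38, 0.05 and 0.17. Without HS3A8-high replicate 1 it was 0.09. Macrophages also express Slc40a1. Their 12 markers summed to 9.03 to 60.8 CPM in HS3A8-high and 20 to 118 CPM in HS3A8-low, with Marco at 0 in all libraries. Adgre1 had 0, 0 and 5.69 CPM in HS3A8-high and 0.0586, 0.211 and 14.9 CPM in HS3A8-low. Cd163, the largest part of the sum in replicates 1 and 2, had 8.85, 5.79 and 7.08 CPM in HS3A8-high. In HS3A8-low it had 15.8, 10.8 and 5.98 CPM. Within each pair the macrophage sum was higher in HS3A8-low, but Cd163 was not in replicate 3. The part of macrophages in the Slc40a1 result was not tested.

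Of the iron regulatory proteins, Aco1 (ENSMUSG00000028405, chromosome 4 from 40143081 to 40198338), which doubles as the cytosolic aconitase when it holds an iron-sulfur cluster, had 131, 152 and 141 CPM in HS3A8-high and 128, 143 and 102 CPM in HS3A8-low. Ireb2 (ENSMUSG00000032293, chromosome 9 from 54863789 to 54912530), whose protein is degraded when iron is plentiful, had 57.8, 42.9 and 36.6 CPM in HS3A8-high and 52.7, 42.6 and 28.5 CPM in HS3A8-low. For Ireb2 replicates 1 to 3 took the same order in both fractions, and the libraries of a fraction differed more than the fractions did. The log2 fold changes were 0.16 (95% interval -0.17 to 0.48) for Aco1 and 0.12 (-0.51 to 0.75) for Ireb2, with adjusted p of 0.592 and 0.846 by edgeR. Leaving out HS3A8-low replicate 3 brought Aco1 to 0.03, and leaving out HS3A8-low replicate 2 brought it to 0.29. The interval of Ireb2 was the widest among the members.

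**Figure D2:**
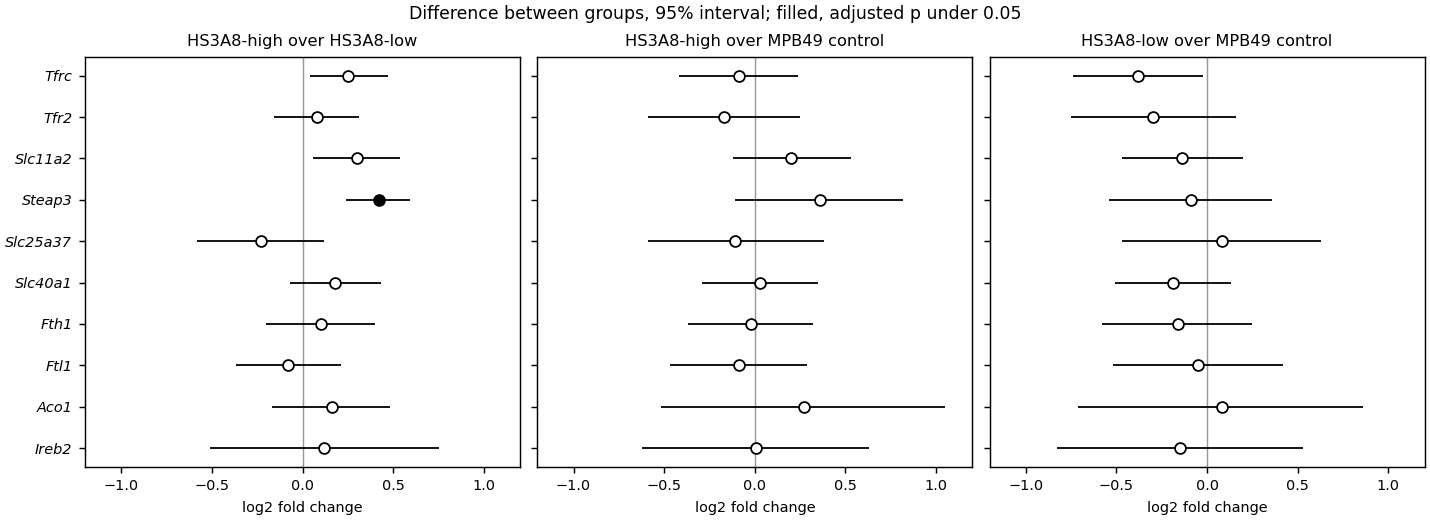
Log2 fold change (horizontal axis) of each of the 10 iron genes in the 3 comparisons, as a point with its 95% interval. Filled points passed an adjusted p of 0.05. Steap3 between HS3A8-high and HS3A8-low, at 0.42, is the only filled point, and the widest intervals, those of Aco1 and Ireb2 against the control, cross 0.

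Markers of other lineages differed between the same libraries. In HS3A8-high the 10 megakaryocyte markers summed to 38.8 to 57.2 CPM and in HS3A8-low to 221 to 425 CPM, all 10 having counts. The 9 T and NK cell markers summed to 4.29 to 36.9 CPM in HS3A8-high and 149.6 to 167 CPM in HS3A8-low. The 8 B cell markers summed to 1.35 to 5.23 CPM and 10.1 to 13.6 CPM, with Pax5 and Ms4a1 at 0 in all libraries. The part of these cells in the levels of Steap3, Tfrc, Slc11a2 and Slc40a1 was not tested, and in bulk RNA fewer iron-importing cells and less RNA per cell cannot be told apart. The granulocyte-monocyte sums overlapped between the fractions, but within each pair HS3A8-low was higher, with 121 against 19.3 CPM, 264 against 10.2 CPM and 5014 against 1951 CPM. With replicate 3 of both fractions left out the log2 fold change of Steap3 was 0.42 (adjusted p = 0.066 by edgeR). Markers of late erythroblasts, 10 genes, summed to 264 to 443 CPM in HS3A8-high and 303 to 468 CPM in HS3A8-low. These ranges overlapped, and within each pair HS3A8-low was again higher.

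The MEP markers differed between the fractions too, though not all in the same direction. The sum of all 7 was 2631 to 2714 CPM in HS3A8-high and 2108 to 2537 CPM in HS3A8-low, without overlap. Of the 7 genes 4 were higher in every HS3A8-high than in every HS3A8-low library, against 14.1% of all genes tested. Kit and Zfpm1 overlapped between the fractions. Klf1, an erythroid transcription factor, had 853 to 1025 CPM against 628 to 802 CPM, and the erythropoietin receptor Epor 261 to 299 CPM against 205 to 243 CPM. Gata1, the master regulator of both lineages, had 473 to 516 CPM against 369 to 457 CPM, and its partner Tal1 86.3 to 105 CPM against 70.7 to 80.5 CPM. Gata2, a factor of earlier progenitors, lay the other way, at 132 to 144 CPM in HS3A8-high and 198 to 404 CPM in HS3A8-low. The part of these differences in the levels of the iron genes was not tested.

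The MPB49 control libraries come from mock-sorted MEPs. No member passed the threshold against it in either fraction. For HS3A8-high, Steap3 was the only member whose libraries did not overlap with the control, and for HS3A8-low these were Tfrc and Slc40a1, both lower than in the control. The control libraries enter both comparisons, so the values of the fractions are not independent of each other.

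Between HS3A8-high and the control, 0 of 10 members passed by edgeR, against 0.0174% of the 11486 genes tested. An unadjusted p under 0.05 was held by 0 of 10 members and by 562 of all these genes. DESeq2, which filters genes by its own rule, called 0 members and 140 genes. Steap3 had 144, 210.3 and 221 CPM in the control. All of these lay below the 235 to 256 CPM of HS3A8-high, a separation also found for 14.2% of all genes. Its log2 fold change was 0.36 (95% interval -0.11 to 0.82, adjusted p = 0.733 by edgeR), and it was 0.19 without control replicate 1, the library with 144 CPM. Tfrc (547, 480.3 and 587 CPM in the control) had a log2 fold change of -0.09 in HS3A8-high, and Slc40a1 (149.9, 138 and 146 CPM) one of 0.03.

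Between HS3A8-low and the control, 0 of 10 members passed by edgeR and 0 by DESeq2, and 1, Tfrc, had an unadjusted p under 0.05. Over all 11878 genes tested by edgeR 0% passed, with 673 at an unadjusted p under 0.05. DESeq2, which filters genes by its own rule, made 93 calls. Tfrc was at 389 to 449 CPM in HS3A8-low and at 480.3 to 587 CPM in the control, without overlap. Its log2 fold change was -0.38 (95% interval -0.74 to -0.02, unadjusted p = 0.0412, adjusted p = 0.84 by edgeR), and -0.46 to -0.31 with 1 library left out. Slc40a1 was at 122 to 133 CPM against 138 to 149.9 CPM, with a log2 fold change of -0.19 (95% interval -0.51 to 0.13, adjusted p = 0.84 by edgeR). Without overlap were 2 of 10 members here, against 12.8% of all genes.

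Control replicate 1 set much of the control's spread. It held the highest level of all 9 libraries for Tfr2 (669.7 CPM, against 464 and 476 CPM in control replicates 2 and 3), Slc25a37 (31.7 CPM), Fth1 (2736 CPM) and Ftl1 (2702 CPM). It held the lowest for Steap3 (144 CPM) and Aco1 (61.7 CPM, against 148 and 144 CPM). Without it the log2 fold change of Aco1 turned from 0.27 to -0.04 (HS3A8-high) and from 0.08 to -0.23 (HS3A8-low), and that of Tfr2 shrank from -0.30 to -0.11 in HS3A8-low. None of these values had passed the threshold.

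To compare genes with each other, CPM were divided by the exon length of each gene. In HS3A8-high MEPs Ftl1 came first with 1549.9 ± 103 CPM per kilobase (SD, n = 3), followed by Fth1 with 690.2 ± 69.2 (SD, n = 3). The receptors came next, Tfr2 with 108 ± 9.42 and Tfrc with 80.9 ± 6.08. Steap3 (42.7 ± 1.85), Slc11a2 (35 ± 3.53) and Aco1 (31.4 ± 2.33) lay close together, and Slc11a2 and Aco1 overlapped. Slc40a1 had 16.2 ± 1.76, and the lowest were Ireb2 (4.83 ± 1.15) and Slc25a37 (3.91 ± 0.156), which overlapped. The order of the 8 most abundant genes was the same in HS3A8-low and in the control, but in the control Steap3, Slc11a2 and Aco1 each overlapped with the next gene in the order.

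**Figure D3:**
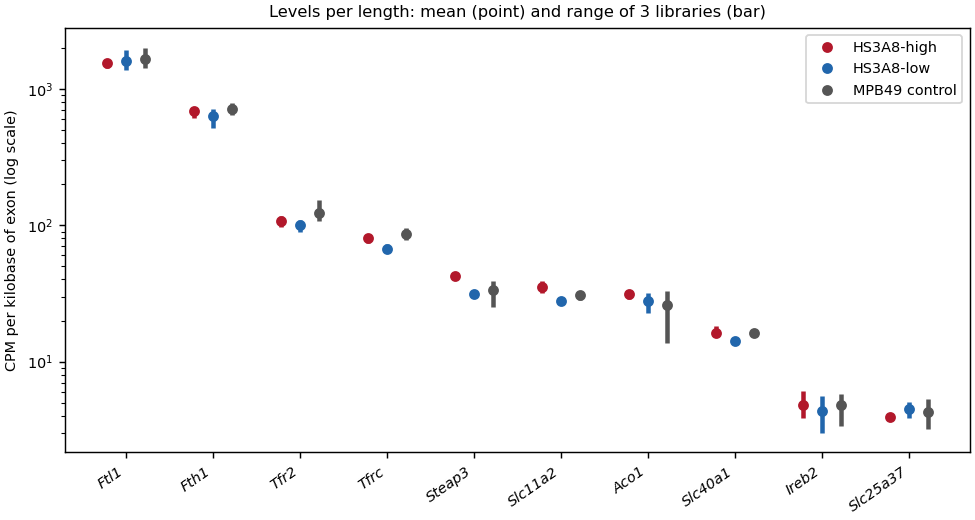
CPM per kilobase of annotated exon (vertical axis, log scale) of the 10 genes, ordered by their level in HS3A8-high. Points are group means and bars run from the lowest to the highest of 3 libraries. Ferritin transcripts lie from 518 to 2016 CPM per kilobase and Ireb2 and Slc25a37 from 3 to 6.09.

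Ratios between partner genes of the same library were taken on this scale. It divides by all annotated exons of a gene (3469 bases for Fth1, 1340 for Ftl1), which can be longer than the expressed mRNA. Transcripts of Tfr2 exceeded those of Tfrc in all 9 libraries, by 1.14 to 1.75 times. Light ferritin exceeded heavy ferritin by 2.15 to 2.69 times, and Aco1 exceeded Ireb2 by 4.05 to 8.11 times. The order within the first 2 of these pairs rests on the division by exon length: in CPM Fth1 lay above Ftl1 in 7 of 9 libraries and Tfrc above Tfr2 in 5 of 9. The Tfrc to Slc40a1 ratio, uptake over export, was 4.68, 4.84 and 5.48 in HS3A8-high replicates 1 to 3. It was 4.49, 4.4 and 5.37 in those of HS3A8-low and 5.06 to 5.84 in the control, so the fractions overlapped. Together the 10 genes took 0.55% to 0.668% of all counts per library, and the ferritin pair alone 0.393% to 0.513%.

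For Tfrc and Slc40a1 the genes with the most similar course over the 9 libraries were sought among the 7049 genes averaging 20 CPM or more, by the root mean square difference of their centred log2 CPM. Nearest to Tfrc were Ecsit (0.0794), Ccdc51 (0.0821) and Hacd3 (0.0837), where the median gene lay at 0.294. Nearest to Slc40a1 were Srpk1 (0.0629), Eif1a (0.0646) and Fbxw2 (0.0654), with a median of 0.258.

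The other genes of iron handling were taken as a list of 50, of which 36 could be tested between HS3A8-high and HS3A8-low. Of these 0 passed the threshold by edgeR, 4 had an unadjusted p under 0.05 and 1 was called by DESeq2. With the replicate number as a block in edgeR 2 passed. Over all 11791 genes tested by edgeR the first 2 of these counts were 451 and 2339, which are larger shares than those of the list. DESeq2, which filters genes by its own rule, called 1224 genes, and 1367 passed with the block. The median log2 fold change of the 36 further genes was 0.09, with 22 above and 14 below 0. Groups without overlap were found for 8 of 36, against the 28.6% of all genes given above. Without a count in any library were 8 genes, among them the Steap family genes Steap1, Steap2 and Steap4, the ferroxidases Heph and Hephl1 and mitochondrial ferritin, Ftmt. Steap3 was thus the only gene of its family found in these MEPs at this depth, where 0 counts allow 0.176 to 0.282 CPM.

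Nearest to the threshold was Ncoa4, the receptor that delivers ferritin to autophagy and so releases stored iron. Ncoa4 had 64.6, 63.8 and 66.6 CPM in HS3A8-high and 86.9, 83.5 and 78.4 CPM in HS3A8-low. The groups did not overlap, and the spread was smallest in HS3A8-high. The log2 fold change was -0.38 (SE 0.0891, adjusted p = 0.0695 by edgeR), which passed with the replicate number as a block (adjusted p = 0.0422) and by DESeq2 (0.0249), and over all alternatives the adjusted p ran from 0.0249 to 0.336. In the control Ncoa4 had 52.3, 73.4 and 76.3 CPM, with replicate 1 the lowest of all libraries.

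Mitochondrial iron and iron-sulfur cluster genes were all 16 tested. Against HS3A8-low 12 of them had a log2 fold change above 0 in HS3A8-high, with a median of 0.13, a range of -0.54 to 0.32 and none past the threshold. Over all genes 5499 of 11791 lay above 0, with a median of -0.03. Abcb8, a mitochondrial transporter linked to iron export, had 168, 179 and 166 CPM in HS3A8-high and 141, 144 and 139 CPM in HS3A8-low, without overlap (a log2 difference of 0.24, adjusted p = 0.13 by edgeR). Nfs1, the cysteine desulfurase that supplies the sulfur, had a mean of 141 against 119 CPM (0.22 on the log2 scale, adjusted p = 0.266), and Fdxr, the ferredoxin reductase, one of 46.5 against 39.2 CPM (0.22, adjusted p = 0.324). Both were without overlap. The co-chaperone Hscb lay the other way, with 25.7, 32.4 and 24.3 CPM in HS3A8-high and 29.7, 37.1 and 51.0 CPM in HS3A8-low, a log2 difference of -0.54 (adjusted p = 0.239).

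Of the cytosolic chaperones, Pcbp1, which hands iron to ferritin, had a mean of 836 CPM in HS3A8-high and 743 CPM in HS3A8-low without overlap (log2 fold change 0.15, adjusted p = 0.25 by edgeR). The heme oxygenase Hmox1, which frees iron from heme, had 0.628, 0.978 and 3.44 CPM in HS3A8-high and 1.70, 3.87 and 10.4 CPM in HS3A8-low. Its highest value in each fraction was replicate 3, where granulocyte-monocyte markers were also highest. In control replicates 1 to 3 Hmox1 had 6.97, 1.59 and 2.42 CPM, where these markers summed to 102, 204 and 154 CPM. The part of such cells in the Hmox1 level was not tested. For Hmox1 the fitted difference was -1.68 on the log2 scale (adjusted p = 0.336 by edgeR) and passed with the replicate number as a block (-1.69, adjusted p = 0.0336). With 1 library left out it ran from -2.73, without HS3A8-high replicate 3, to -0.74, with an adjusted p of 0.155 to 0.679. Within the pairs it was lower in HS3A8-high by 1.26 to 1.84 on the log2 scale.

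**Figure D4:**
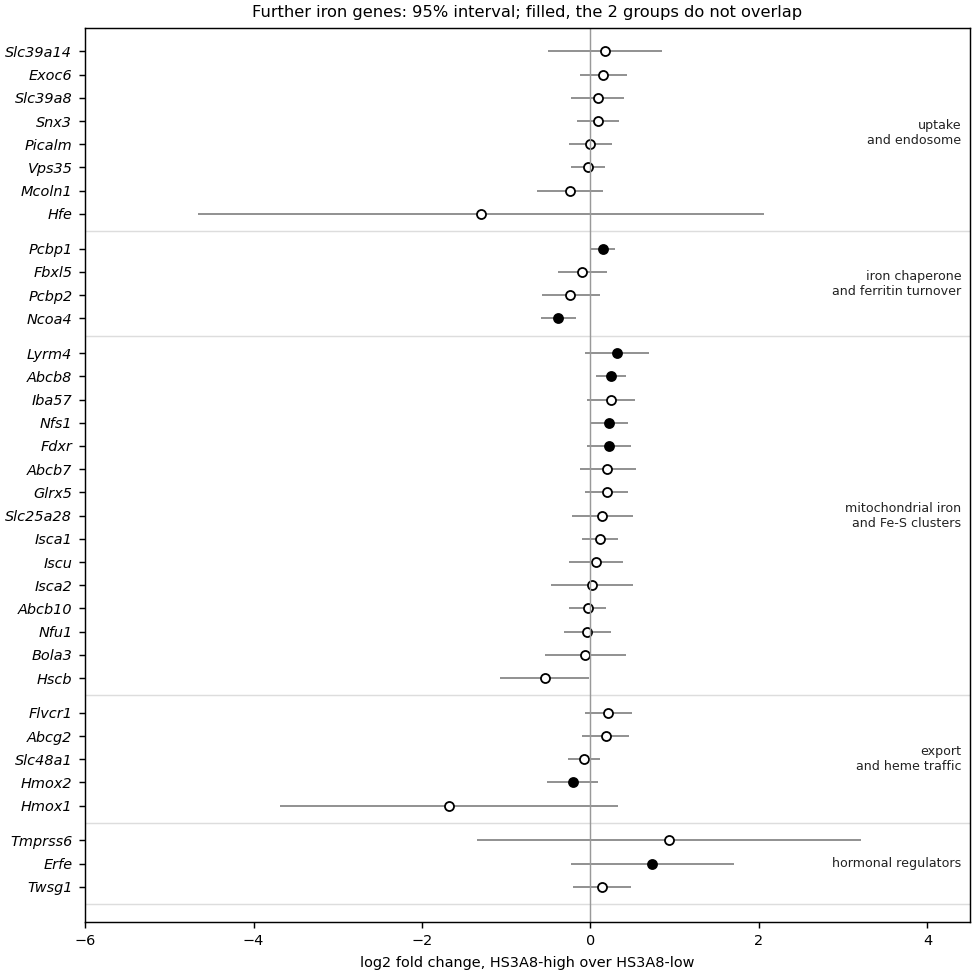
Log2 fold change, HS3A8-high over HS3A8-low (horizontal axis), of 35 of the 36 further iron genes that could be tested, grouped by role, with 95% intervals. Filled points mark genes whose 2 groups do not overlap. None passed the threshold. Ncoa4 lies at -0.38 with an interval that does not reach 0, and the widest intervals belong to Hfe, Hmox1 and Tmprss6.

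Against the control 0 of the 35 further genes tested passed in either fraction by edgeR or DESeq2, and 0 had an unadjusted p under 0.05. Over all genes, edgeR passed 2 of 11486 in HS3A8-high and 0 of 11878 in HS3A8-low. At an unadjusted p under 0.05 were 562 and 673 of these. DESeq2, which filters genes by its own rule, called 140 and 93. Among the further genes the smallest p in HS3A8-high belonged to Tmprss6, Hscb, Flvcr1, Bola3, Isca2 and Mcoln1, with log2 fold changes of 1.93, -1.08, 0.40, -0.75, -0.79 and -0.21. In HS3A8-low Erfe, Glrx5, Lyrm4, Ncoa4 and Abcb8 were among those with the smallest p, with -1.30, -0.43, -0.50, 0.30 and -0.22. Control replicate 1 set several of these values. Without it, in HS3A8-high, Hscb was at -0.04, Bola3 at 0.02, Isca2 at 0.17, Flvcr1 at 0.20 and Mcoln1 at -0.12, and in HS3A8-low Erfe was at -0.74, Glrx5 at -0.13, Lyrm4 at -0.12 and Ncoa4 at 0.15. For Tmprss6 the value without control replicate 2 was 3.22. The adjusted p was 0.733 for each of the former and 0.84 for each of the latter. Tmprss6 and Erfe had at most 2.26 and 3.77 CPM in any library. In the iron-sulfur group 14 of 16 genes had a log2 fold change below 0 in HS3A8-low, where 5980 of all 11878 genes did, and 8 of 16 in HS3A8-high, where 5783 of 11486 did. In control replicate 1, which stood apart from the other control libraries, 9 of the 16 genes had their highest level. The share of all genes that were highest in that library was not counted. Without that library 11 of 16 were below 0 in HS3A8-low (5745 of 12214 over all genes) and 3 of 16 in HS3A8-high (5517 of 11789).

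Beyond the members, IREs are known in Alas2, the erythroid enzyme that starts heme synthesis, in Epas1 and in Pfn2. The search found a core in the 5′ UTR of Alas2 (chrX:150547464-150547480, plus strand).
Alas2: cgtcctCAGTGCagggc
Alas2 was low in all libraries, at 1.19, 1.73 and 9.27 CPM in HS3A8-high and 3.16, 3.45 and 7.49 CPM in HS3A8-low (log2 fold change -0.23, 95% interval -2.12 to 1.66). With 1 library left out the value ran from -1.69, without HS3A8-high replicate 3, to 0.27, and it was -0.66 with the replicate block. Replicate 3 was the highest of both fractions, as it was for the summed late erythroblast markers, of which Alas2 is 1. Epas1 and Pfn2 were not tested, with at most 0.265 and 1.43 CPM.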

How the data were processed

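The authors sequenced low-input RNA-seq libraries and used STAR to map them to the transcriptome of mm10. The submitters' processing notes name STAR 2.5 and HTSeq 0.6.1. The deposited values are raw read counts per gene without normalization, 1 column per library, and no replicates were pooled. The annotation release and the strand setting are not given in the sources used here. Symbols, coordinates and exon lengths came from GENCODE M21 (GRCm38, another name of mm10), which matched 34490 of 35275 identifiers.

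Counts were analysed in R 4.3.3 with the quasi-likelihood test of edgeR 4.0.16 (filterByExpr, TMM, Benjamini-Hochberg adjustment over all genes tested), each fit holding the libraries of 2 groups. Intervals are 95% intervals from the SE and the moderated degrees of freedom. CPM were TMM-scaled over all 9 libraries, and log2 CPM used a prior count of 2. Alternatives were size factors and the test of DESeq2 1.42.0, no count filter, all 9 libraries in 1 fit, a replicate block, each library left out and, for ferritin, family rows summed. Leaving out replicate 3 of both fractions was chosen after seeing the data. The scripts were tested on simulated counts.

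The replicate numbers were checked for pairing over 12108 genes. Same-numbered libraries of the HS3A8 fractions deviated together from their group means (r of 0.325 to 0.509), and different-numbered ones did so less or not (-0.469 to 0.123). The main fits leave this pairing out, and the replicate block takes it in. Between the fractions 451 genes passed in the main fit and 1367 with the block, where Ncoa4 and Hmox1 also passed. Numbers of the control paired with neither fraction (-0.345 to 0.0312). The study gives individual mice as replicates, and does not say if 1 mouse gave both fractions. The labels name no animals, so p-values measure the spread between these samples.

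The members and lists were chosen with earlier results of these data known. All 10 members are named, and of the 50 further iron genes the 6 with the smallest p per comparison, with Hmox1 added because its call changed with the block. Results for 2 genes of the lists are not reported here. Hfe is named in a caption after its values were seen. The single-cell and other assays of the study were not analysed here.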

Additional observations from a re-analysis of the deposited data

How the results depend on the processing

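Of 10 members, 1 (Steap3) passed the threshold between HS3A8-high and HS3A8-low, and also with DESeq2 size factors, the DESeq2 test, no count filter and the replicate block, which changed no other call of a member. The count was 0 with all 9 libraries in 1 fit and with replicate 3 of both fractions left out, and 0 to 0 with 1 library left out. The further iron genes called were 1 with DESeq2, 2 with the replicate block and 0 to 0 with 1 library left out. Over all genes 451 were called, 1224 by DESeq2, 1367 with the replicate block, 748 without replicate 3 of both fractions and 0 to 439 with 1 library left out. Leaving out HS3A8-low replicate 2 gave 0 calls, replicate 1 gave 56 and replicate 3 gave 244, and leaving out HS3A8-high replicate 1 gave 42 and replicate 2 gave 53, and with fewer libraries the test has fewer degrees of freedom. Against the control HS3A8-high had 2 genes called, 140 by DESeq2, 9 without a filter, 32 with all 9 libraries in 1 fit, 0 with the replicate block (the control shares only the number with the fractions) and 0 to 5 with 1 library left out, and HS3A8-low had 0, and 93 by DESeq2.

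Of 346 values of members under alternatives, 315 kept direction and call, 8 lost the call and 23 changed sign, none of these from a called value. Between HS3A8-high and HS3A8-low they occurred with 1 library left out for Fth1 (-0.01 to 0.20), Ftl1 (-0.16 to 0.07) and Ireb2 (-0.08 to 0.36), and for Ftl1 without replicate 3 of both fractions (0.05). For HS3A8-high against the control the ranges with 1 library left out were -0.25 to 0.0048 for Tfr2, -0.26 to 0.06 for Slc25a37, -0.05 to 0.08 for Slc40a1, -0.09 to 0.07 for Fth1, -0.17 to 0.06 for Ftl1, -0.04 to 0.47 for Aco1 and -0.20 to 0.16 for Ireb2, and Fth1 reached 0.0043 without a filter and Ireb2 -0.003 in the fit of all 9 libraries. For HS3A8-low against the control they were -0.26 to 0.02 for Steap3, -0.09 to 0.25 for Slc25a37, -0.19 to 0.11 for Ftl1, -0.23 to 0.27 for Aco1 and -0.37 to 0.07 for Ireb2. The cause was not tested.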

Other observations

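Some genes of the iron-sulfur cluster pathway were high in 1 library, MPB49 control replicate 1, whose counts in general stood apart from the other controls. How many of all genes were highest in that library was not counted. Isca2, an assembly factor for mitochondrial clusters, had 336 CPM there against 77.4 and 94.5 CPM in control replicates 2 and 3 and 67.7 to 123 CPM in the 6 sorted libraries. Bola3 had 367 CPM against 97.7 and 132 CPM, Hscb 121 CPM against 24.2 and 32.4 CPM and Glrx5 653 CPM against 359.9 and 412 CPM. Each of these was the highest of all 9 libraries. These genes were chosen after their values were seen, and the cause was not tested.

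Hfe, the hemochromatosis protein that pairs with transferrin receptors, had 0.0628 to 0.937 CPM in 7 libraries, 2.12 CPM in HS3A8-high replicate 3 and 5.47 CPM in HS3A8-low replicate 3. The macrophage colony-stimulating factor receptor Csf1r was highest in the same libraries, at 33.7 and 67.8 CPM against 0.44 to 2.57 CPM in the other 7. Of the macrophage list Adgre1, Cd68 and Vcam1 were also highest there, but the rest were not. Cd163 had 7.08 and 5.98 CPM there against 5.79 to 15.8 CPM in the other 7. The granulocyte-monocyte markers summed highest in these libraries too, at 1951 and 5014 CPM. No test of a relation between these genes was run.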
